A study of Homo sapiens with 16 samples.

Results

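Chromosome 22 was examined as a set of 423 genes, all of the genes that the deposited expression table places on it, out of 19333 genes on all chromosomes. The members were chosen by chromosome alone. The chromosome itself was chosen because, in an earlier reading of the same contrast, a larger share of its genes was called lower after Top1 depletion than on any other chromosome, so that share is described here without a test and supports nothing. The libraries are total RNA-seq of HEK293 cells, an aneuploid human embryonic kidney line that carries adenovirus DNA. Cells were transfected repeatedly with a negative control RNA (scramble, 2 libraries) or with siRNA against Top1 (Top1 KD, 2 libraries), and the samples were of different passages. The methods name a pair of Top1 siRNAs without saying which was used for these libraries. R-loop and RNA polymerase II samples of the same study were not analysed here.

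Chromosome 22 is a small acrocentric chromosome. Its short arm carries repeated ribosomal RNA genes, and nearly all of its protein-coding genes lie close together on the long arm. Top1 is the enzyme that relaxes the DNA supercoils that RNA polymerase leaves ahead of and behind itself, and R-loops, in which the nascent RNA pairs with its template, form where negative supercoils open the DNA. The study mapped R-loops after loss of Top1 to ask what the enzyme does to them across the genome, and the RNA-seq libraries measure gene expression under the same treatment. Here expression is followed along a single gene-dense chromosome.

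Each value is a normalized count, that is the reads of a gene in a library divided by that library's size factor, without scaling for gene length. The reads behind these values were recovered by rounding to whole numbers, and they came to between 14681774 and 18366226 per library. Chromosome 22 took 2.13% and 2.19% of these reads under scramble treatment, and 2.09% and 2.13% after Top1 depletion. The lower scramble share and the higher Top1 KD share were equal to the digits given. With 2 libraries in each group, an exact two-sided permutation test cannot give a p below 0.333. The replicates of a group differed by 1.5-fold or more for 2.93% (scramble) and 6.69% (Top1 KD) of the chromosome 22 genes that averaged 100 normalized counts or more over the 4 libraries. The table gives transcript identifiers and no gene names, and 0 of them matched an entry of the available name lists. Genes are therefore placed by their coordinates in the table (hg19), and the fall of TOP1 itself, which would check the labels, was not measured here.

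Of the 423 genes, 303 reached 10 normalized counts in 2 or more libraries and were tested. Another 56 had reads but stayed below this limit, with no library above 30.3 normalized counts, and 64 had no read in any library. Tested genes of chromosome 22 were shorter than tested genes in general, with a median span from start to end of 24.7 kb against 31.4 kb, and had a similar median scramble level of 568 against 536 normalized counts. Per kb of gene span the medians were 19.6 normalized counts on chromosome 22 and 14.9 over all tested genes. The gene with the highest level per kb of span, on the minus strand at chr22:39708889-39715776, had 23829 and 24091 normalized counts in scramble cells and 20112 and 20862 in Top1 KD cells. Both Top1 KD values lay below both scramble values, and the difference did not pass the test (log2 fold change -0.23, standard error 0.08, limma adjusted p = 0.0805).

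Top1 KD cells were compared with scramble cells by limma over all 13086 tested genes, with 1 added to each normalized count before taking log2. A gene was called at a change of at least 1.5-fold with a Benjamini-Hochberg adjusted p under 0.05. Lower calls in Top1 KD cells numbered 29 among the 303 tested genes of chromosome 22 (9.57%), where 4.26% of all tested genes were called lower. Another 10 genes were called higher (3.30%), where 3.88% of all tested genes were. The remaining 264 genes were not called. Nothing is read from the share of lower genes, since it chose the chromosome. On chromosome 19, another gene-dense chromosome, 3.73% of 859 tested genes were called lower and 2.44% higher, and on chromosome 7 the shares were 6.88% and 3.84% of 625. The counts moved when single libraries were left out. In fits that left out a library, in which the lone library of a group is assumed to vary like the others, 6 genes of chromosome 22 were called lower without scramble replicate 1, 9 without scramble replicate 2, 12 without Top1 KD replicate 1 and 31 without Top1 KD replicate 2, of which 26 were among the 29. The genes called higher numbered 4, 5, 5 and 9 in the same order. Over all tested genes the shares called lower in these fits were 1.08%, 1.51%, 2.67% and 5.73%, and the shares called higher 1.34%, 1.73%, 1.70% and 4.42%, beside 1.32%, 1.65%, 1.65% and 2.97% on chromosome 22. In bulk RNA, fewer cells that express a gene and less RNA per cell cannot be told apart.

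The calls on chromosome 22 were mostly of moderate size. Of the 29 genes called lower, 21 fell by between 1.5-fold and 2-fold and 8 by at least 2-fold (2.64% of 303, against 1.55% of all tested genes). Their median log2 fold change was -0.77, and their median ratio of the Top1 KD mean to the scramble mean was 0.586. Of the 10 genes called higher, 8 rose by less than 2-fold and 2 by more (0.660%, against 1.05% of all tested genes), with a median log2 fold change of 0.70 and a median ratio of 1.62. Without the fold threshold, an adjusted p under 0.05 was found for 40 genes with a negative fold change (13.2%, against 7.63% of all tested genes) and 20 with a positive one (6.60%, against 7.17%). The middle of the distribution moved little. The median log2 fold change was -0.05 over the 303 genes and 0.00 over all tested genes, while the quartiles were -0.42 and 0.23 on chromosome 22 and -0.30 and 0.28 over all tested genes. A low median was not particular to chromosome 22, as it was -0.09 on chromosome 19, -0.06 on chromosome 16 and -0.02 on chromosome 7. Taking each Top1 KD library against each scramble library, which gives 4 pairs, the median of chromosome 22 lay between -0.09 and -0.04, and between replicates it was 0.06 in Top1 KD and 0.04 in scramble cells, so the shift of the median was similar in size to the differences between replicates. Groups that do not overlap were common. Both Top1 KD libraries lay below both scramble libraries for 111 of the 303 genes (36.6%, against 29.0% of all tested genes) and above both for 80 (26.4%, against 28.8%).

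**Figure D1:**
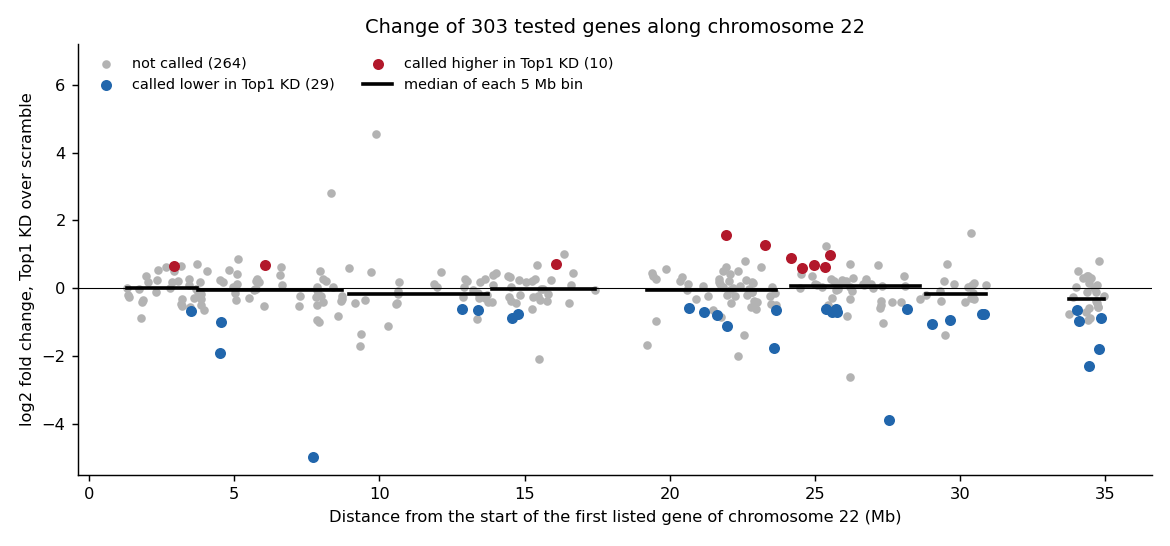
Log2 fold change of each of the 303 tested genes (vertical axis, Top1 KD over scramble) against the distance in Mb from the start of the first listed gene of chromosome 22 (horizontal axis), with the 29 genes called lower in blue, the 10 called higher in red, the 264 others in grey, and black bars for the median of each 5 Mb bin. Red and blue points are mixed in the bins before the last 2, except that the third bin has no red point, and the 2 last bins hold blue points and no red ones.

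The genes that changed most are given from those called, with groups that do not overlap and an average of 100 normalized counts or more. ENST00000399908, on the plus strand near the end of the long arm at chr22:51041562-51052409, had 865 and 827 normalized counts in scramble cells and 219 and 276 after Top1 depletion. The scramble values lay close together and well above the higher of the Top1 KD values. It fell by 1.78 on the log2 scale (standard error 0.19, limma adjusted p = 6.34e-05). ENST00000341184, also on the plus strand at chr22:39853349-39888199, had 763 and 606 normalized counts in scramble cells and 159 and 255 in Top1 KD cells, and its replicates differed more within each group. It fell by 1.75 (standard error 0.24, limma adjusted p = 0.000318). The largest rise was that of ENST00000340857, a plus-strand gene of 2.33 kb at chr22:38201114-38203442, from 292 and 284 normalized counts in scramble cells to 799 and 936 in Top1 KD cells. It rose by 1.58 (standard error 0.18, limma adjusted p = 9.1e-05). ENST00000216133, on the minus strand at chr22:39526777-39548655, had 64.0 and 75.7 normalized counts in scramble cells and 173 and 165 in Top1 KD cells, the lowest level of the 4. Its log2 fold change was 1.27 (standard error 0.36, limma adjusted p = 0.0262), and the call was lost without the filter on low counts (limma adjusted p = 0.0533) and in each of the 4 fits that left out a library. The 2 that rose and 1 of those that fell start between 35 and 40 Mb, so genes that moved in opposite directions lay in the same stretch.

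**Figure D2:**
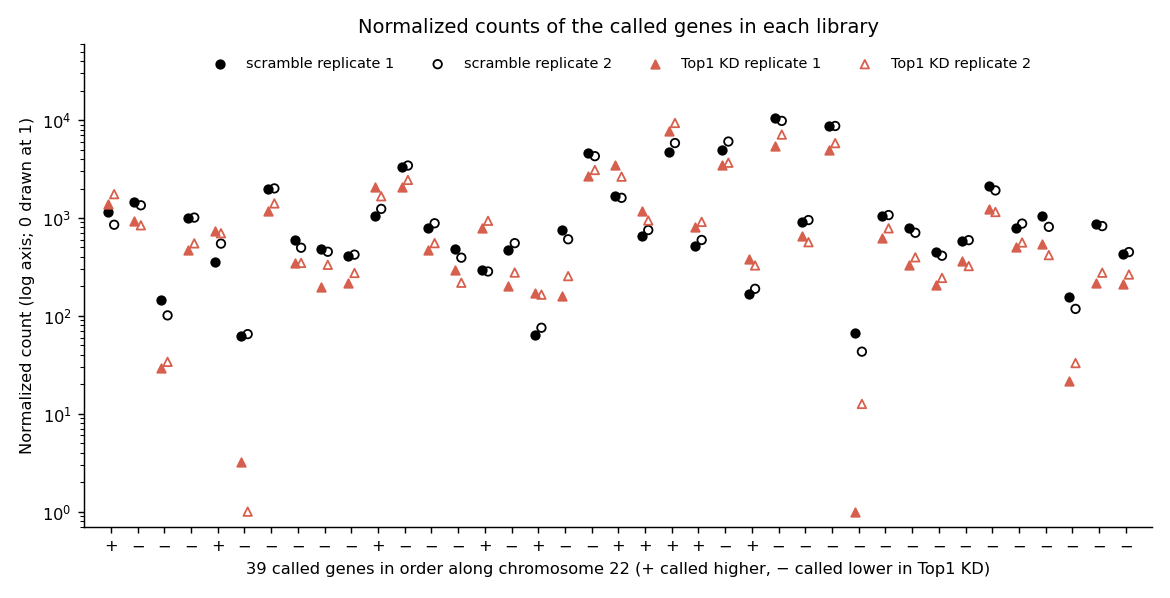
Normalized counts (log axis) of the 39 called genes in each library, in order along chromosome 22, with circles for scramble and triangles for Top1 KD libraries, filled for replicate 1 and open for replicate 2, and values of 0 drawn at 1. For all 29 genes marked − both triangles lie below both circles and for all 10 marked + both lie above.

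A few genes at low levels had no read in at least 1 library of a group, and they were picked out after their values had been seen. A minus-strand gene at chr22:23950639-23974508 had 61.9 and 65.1 normalized counts in scramble cells and 3.25 and 0 in Top1 KD cells, that is 58 and 74 reads against 3 and 0. A plus-strand gene at chr22:43807202-43903728 had 67.2 and 43.1 normalized counts in scramble cells and 0 and 12.6 in Top1 KD cells. Both are among the 29 genes called lower, and a fold is not given, since reads this few leave it undetermined. The first is the 1 called gene that reached the limit on counts through the libraries of its higher group alone, so it had to differ and its call is no result. In the opposite direction, a plus-strand gene of 289 kb at chr22:26138120-26427007 had no read in either scramble library and 18 and 26 reads in the Top1 KD libraries, or 19.5 and 25.2 normalized counts. Set against a floor of 3 reads per scramble library, its mean of 22.3 normalized counts was at least 7.65-fold higher. It too reached the limit through its higher group alone, so it is described without a test, and it is not among the called genes. Of the 16 genes that differed at least 2-fold on the fitted scale and were not called, 15 had a mean under 100 normalized counts.

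At the other end of the range were abundant genes that moved moderately. A minus-strand gene at chr22:41855721-41864729 had 10479 and 9821 normalized counts in scramble cells and 5502 and 7119 in Top1 KD cells (log2 fold change -0.70, standard error 0.11, limma adjusted p = 0.000859). A plus-strand gene of 2.99 kb at chr22:39915700-39918688 had 4621 and 4285 in scramble and 2676 and 3095 in Top1 KD cells (log2 fold change -0.63, standard error 0.11, limma adjusted p = 0.00128). Both belong to the 5 genes with the highest scramble level per kb of span on the chromosome, and the other 3 were not called, with log2 fold changes between -0.23 and -0.11. The most abundant gene called higher, on the minus strand at chr22:41220539-41253026, had 4767 and 5832 normalized counts in scramble cells and 7733 and 9358 in Top1 KD cells. It rose by 0.69 (standard error 0.11, limma adjusted p = 0.00112), so calls in both directions were made at high as well as low counts.

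Along the chromosome, genes were grouped by start into 8 bins of 5 Mb, of which the first begins at 15 Mb and the last, from 50 Mb, covers the 1.19 Mb between the first and last listed start near the end of the long arm. The bins held between 20 and 58 tested genes. Their median span lay between 14.5 kb from 50 Mb on and 53.2 kb from 25 to 30 Mb. From 50 Mb on, 19 of 28 tested genes spanned under 20 kb, and position and span were not separated. The median log2 fold change was -0.01 from 15 to 20 Mb, -0.07 from 20 to 25 Mb, -0.18 from 25 to 30 Mb and -0.02 from 30 to 35 Mb. It was -0.06 from 35 to 40 Mb and 0.07 from 40 to 45 Mb, the single bin with a positive median. In the 2 bins nearest the end it was -0.18 from 45 to 50 Mb and -0.31 from 50 Mb on. As a ratio of the Top1 KD mean to the scramble mean, the bin medians ran from 0.998 in the first bin to 0.883 from 45 to 50 Mb and 0.834 from 50 Mb on, with the highest, 1.05, from 40 to 45 Mb. Windows of 1 Mb with at least 8 tested genes varied within the bins. The median log2 fold change was 0.12 from 42 to 43 Mb (16 genes) and -0.37 from 43 to 44 Mb (11 genes). It was -0.29 from 45 to 46 Mb (8 genes), 0.04 from 46 to 47 Mb (9 genes) and -0.18 from 50 to 51 Mb (22 genes). Low windows were thus not confined to the end of the arm.

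These bin medians were compared with the spread between libraries. From 50 Mb on, the 4 pairs of libraries gave medians of -0.20, -0.45, -0.21 and -0.27, and the replicates differed by -0.07 in Top1 KD and 0.08 in scramble cells. From 45 to 50 Mb the 4 pairs lay between -0.20 and -0.09, and the replicates differed by -0.02 and 0.00. In both of these bins each pair was negative and larger in size than either replicate difference. From 25 to 30 Mb the pairs ranged from -0.27 to -0.01, wider than the median itself, and the median was 0.01 without Top1 KD replicate 1 and -0.05 without scramble replicate 1. From 20 to 25 Mb all 4 pairs were negative, between -0.08 and -0.03, but the Top1 KD replicates differed by 0.10. In the other 4 bins the pairs had both signs. In every bin from the first to that at 40 Mb, the sign of the median changed under library-size scaling or without 1 of the libraries, and it did not change in the last 2 bins under any scaling, filter, pseudocount or left-out library that was run. Its size did change, since the median from 50 Mb on was -0.18 without Top1 KD replicate 1. The 4 pairs share libraries and are not independent. From 45 Mb on lie 9 of the 29 genes called lower, which are part of the share that chose the chromosome. The low medians of the last 2 bins are drawn from the same values, so nothing is read from them. Bins of other chromosomes were not examined.

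**Figure D3:**
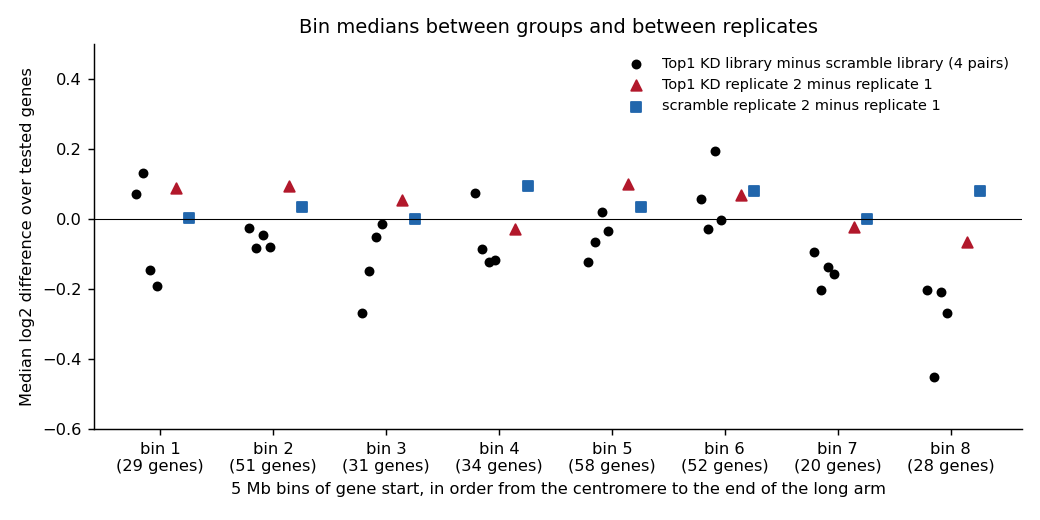
Median log2 difference over the tested genes of each 5 Mb bin (bin 1 from 15 Mb, bin 8 from 50 Mb), with black points for each Top1 KD library minus each scramble library, red triangles for the difference between Top1 KD replicates and blue squares for that between scramble replicates. All 4 black points of bins 7 and 8 lie below 0 and farther from it than the triangle and the square of the bin.

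From the first bin to the last, 3.45%, 5.88%, 6.45%, 5.88%, 10.3%, 11.5%, 20% and 17.9% of the tested genes were called lower, an order that differs from that of the medians. From 45 Mb on, 9 of 48 tested genes were called lower (18.8%) and 0 higher by limma. Before 45 Mb, 20 of 255 were called lower (7.84%) and 10 higher. Over all tested genes 4.26% were called lower and 3.88% higher. The lower calls of every bin are part of the share that chose the chromosome, so nothing is read from them. Among the 48 genes from 45 Mb on, 5 with a positive fold change had an unadjusted p under 0.05 by limma, and edgeR called 0 higher. With DESeq2, with library-size scaling and with a pseudocount of 5, 1 gene from 45 Mb on was called higher. The 9 genes had scramble means between 136 and 2027 normalized counts. Among them, a minus-strand gene at chr22:50702142-50708822 had 155 and 118 normalized counts in scramble cells and 21.6 and 33.0 in Top1 KD cells (log2 fold change -2.29, standard error 0.49, limma adjusted p = 0.00581). A minus-strand gene of 129 kb at chr22:45277042-45405581 had 792 and 706 in scramble and 332 and 396 in Top1 KD cells (log2 fold change -1.04, standard error 0.18, limma adjusted p = 0.00158). The count of 9 fell to 1 without scramble replicate 1 and 4 without scramble replicate 2, and the difference between the end of the arm and the rest was not tested, as neighbouring genes are not replicates. In total, the last bin summed to 19517 and 19953 normalized counts in scramble and 18695 and 17906 in Top1 KD cells, a ratio of 0.927, and the ratio of such sums lay between 0.920 and 0.990 over the 8 bins.

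The 5 calls higher in the bin from 40 Mb all start between 40 and 42 Mb, where 5 of 20 tested genes rose by the call and 3 fell, beside background shares of 3.88% and 4.26%. The stretch was picked for its rises, so nothing is read from these counts. A plus-strand gene of 291 kb at chr22:40440821-40731811 had 1660 and 1608 normalized counts in scramble cells and 3507 and 2648 in Top1 KD cells (log2 fold change 0.90, standard error 0.13, limma adjusted p = 0.00042). The next called gene, on the minus strand with a span of 226 kb at chr22:40806294-41032695, had 656 and 753 in scramble and 1187 and 943 in Top1 KD cells (log2 fold change 0.59, standard error 0.16, limma adjusted p = 0.0201). These are among the longest genes of the bin. A plus-strand gene at chr22:41777933-41795330 had 166 and 189 normalized counts in scramble and 383 and 328 in Top1 KD cells, a rise of 0.99 (standard error 0.24, limma adjusted p = 0.0131). Between the genes called higher lies a minus-strand gene at chr22:41641615-41682255, with 4967 and 6046 normalized counts in scramble and 3482 and 3675 in Top1 KD cells (log2 fold change -0.62, standard error 0.11, limma adjusted p = 0.00159). Genes called in opposite directions thus lay in the same stretch.

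Over all pairs together, neighbouring genes showed little common movement. Of 302 pairs of consecutive tested genes on chromosome 22, 55.0% changed with the same sign, against 51.4% of 13062 pairs on all chromosomes, and Spearman's rho between the fold changes of neighbours was 0.07 and 0.04 respectively (across gene pairs, which share the same 4 libraries). In 3 pairs both neighbours were called lower, in 0 pairs both were called higher and in 0 pairs the calls were opposite, where these counts were 38, 23 and 38 of the 13062 pairs on all chromosomes. The number of pairs called lower depends on the share that chose the chromosome, so nothing is read from these counts. The 3 pairs have different orientations. At chr22:41994032-42017100 on the minus strand and chr22:42017123-42060043 on the plus strand, a divergent pair starts 23 bases apart. The first had 903 and 953 normalized counts in scramble and 649 and 566 in Top1 KD cells, and the second 8735 and 8716 in scramble and 4993 and 5823 in Top1 KD cells, with log2 fold changes of -0.61 and -0.69. A convergent pair at chr22:47016299-47075682 and chr22:47080308-47134158, 4.63 kb apart, had log2 fold changes of -0.77 and -0.76. A tandem pair on the minus strand at chr22:20778874-20792112 and chr22:20795806-20850170, 3.69 kb apart, had log2 fold changes of -1.92 and -0.98. The counts of close neighbours can include reads that run from a gene into the next, and their part in these values was not tested. Over all 20 divergent pairs whose starts lie under 1 kb apart, 14 changed with the same sign (70.0%), while rho between the partners was -0.20. On all chromosomes 461 of 872 such pairs did (52.9%), with a rho of 0.03. At any distance, 62.0% of the 79 convergent pairs of chromosome 22 changed with the same sign, with a rho of 0.23. The shares were 51.3% of 78 divergent pairs (rho -0.16) and 53.1% of 145 tandem pairs (rho 0.08). On all chromosomes they were 51.6%, 51.4% and 51.2% for convergent, divergent and tandem pairs, with rho of 0.04, 0.05 and 0.04. Differences between the orientations were not tested.

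By gene span, the medians of chromosome 22 had no steady order, and that of each class moved by more than 1.5 times when a library was left out. Median changes on the log2 scale were -0.11 for 67 genes under 10 kb, -0.25 for 64 genes of 10 to 20 kb, 0.03 for 77 genes of 20 to 40 kb, -0.17 for 49 genes of 40 to 80 kb and 0.08 for 46 genes of at least 80 kb. Over all tested genes the medians of the same classes were -0.07, -0.04, -0.04, -0.01 and 0.11. Without Top1 KD replicate 1 the chromosome 22 medians were -0.07, -0.12, 0.01, -0.03 and 0.01 in the same order, and without scramble replicate 1 those of 20 to 40 kb and 40 to 80 kb were -0.05 and -0.07. Without scramble replicate 1 genes under 10 kb had a median of -0.23. Without Top1 KD replicate 2 the median of 20 to 40 kb was also negative, at -0.02, and that of the longest class was 0.22. The class of 10 to 20 kb lay lowest on chromosome 22, with 67.2% of its genes below 0 against 52.7% over all tested genes, and its median was -0.23 without the 7 genes of the last bin. The class of 40 to 80 kb held 8 genes called lower (16.3%) and 0 called higher by limma, where 4.27% and 3.06% of all tested genes of this class were. In it 5 genes with a positive fold change had an unadjusted p under 0.05, and edgeR and DESeq2, on the same libraries, also called 0 higher. The lower calls of every span class are part of the share that chose the chromosome, so nothing is read from them. Spearman's rho between span and log2 fold change was 0.10 on chromosome 22 and 0.12 over all tested genes. The same correlation with the difference between the Top1 KD replicates was -0.16 and -0.17, larger in size than that between the groups. The median of the longest class lay between -0.02 and 0.21 in the 4 pairs of libraries.

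**Figure D4:**
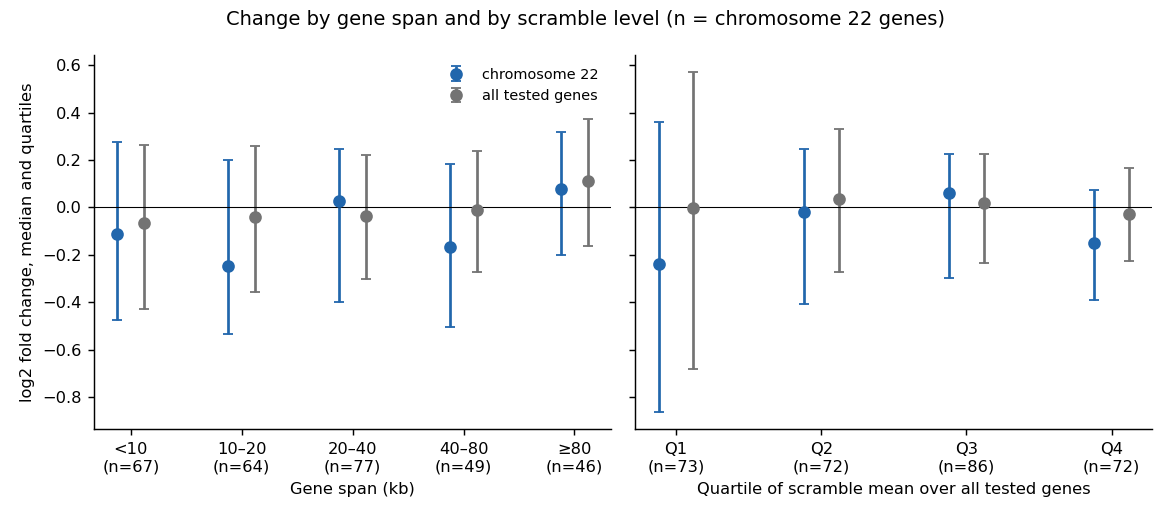
Median log2 fold change with the lower and upper quartile as bars, by gene span in kb (left) and by quartile of the scramble mean (right), for the tested genes of chromosome 22 (blue) and all tested genes (grey). The bars of chromosome 22 and of all genes overlap in every class, and the blue points lie lowest for genes of 10 to 20 kb and for the lowest level quartile.

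By strand, the chromosome was even. The plus strand held 151 tested genes with a median log2 fold change of -0.03, of which 13 were called lower (8.61%) and 5 higher (3.31%), and the minus strand held 152 with a median of -0.06, of which 16 were called lower (10.5%) and 5 higher (3.29%). The gap between the strands lay within the range of the median differences between replicates on either strand, 0.03 to 0.07. Over all tested genes the medians of the strands were both 0.00, with 4.12% called lower and 3.95% higher on the plus strand and 4.41% and 3.81% on the minus strand. The lower calls of both strands are part of the share that chose the chromosome, and nothing is read from them.

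By scramble level, quartiles were set over all tested genes at 136, 536 and 1350 normalized counts. The same scramble values enter the fold change, so no class of scramble level, low or high, gives an independent split. The median log2 fold change of chromosome 22 genes was -0.24 for the lowest quartile (73 genes), -0.02 for the second (72 genes), 0.06 for the third (86 genes) and -0.15 for the highest (72 genes). Over all tested genes these medians were 0.00, 0.04, 0.02 and -0.03. In the lowest quartile the 4 pairs of libraries spread from -0.44 to 0.04 and the median was 0.02 without Top1 KD replicate 1, so no shift was detectable at that depth. The second was -0.09 without scramble replicate 2 and the third 0.00 without scramble replicate 1. In the highest quartile the pairs lay between -0.21 and -0.09, all negative, with replicate differences of 0.06 in Top1 KD and 0.02 in scramble cells. There 37 of 72 genes had both Top1 KD libraries below both scramble libraries (51.4%) and 14 above (19.4%), where 37.1% and 29.4% of all tested genes in that quartile did. Genes called lower were found in each quartile, with 3, 7, 11 and 8 from the lowest to the highest, beside 1, 3, 4 and 2 called higher. As shares these were 4.11%, 9.72%, 12.8% and 11.1% lower, against 1.31%, 5.53%, 6.08% and 4.13% of all tested genes of the same quartiles. The shares called higher were 1.37%, 4.17%, 4.65% and 2.78%, against 1.86%, 7.21%, 4.04% and 2.41%. The lower calls of every quartile are part of the share that chose the chromosome, and nothing is read from them.

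The called genes had no common span or strand. The median span was 23.9 kb for genes called lower, 23.8 kb for genes called higher and 24.8 kb for the others, and their median scramble levels were 834, 631 and 545 normalized counts. Genes called lower ranged from 2.99 kb to 149 kb in span, and genes called higher from 2.33 kb to 291 kb. Of the 39 called genes, 1 called lower and 2 called higher overlap another listed gene, as do 42 of the 303 tested genes. Whether counting used the strand is not given in the sources used here, so reads of overlapping genes could not be assigned with certainty.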

How the data were processed

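The members and lists were chosen with earlier results of these data known. Single-end total RNA-seq reads were trimmed by the authors with fastq-mcf and mapped with Tophat2, keeping uniquely mapped reads, and the submitters' processing notes list TopHat2 2.0.5, HTSeq, DESeq2 and hg19. The annotation release is not given in the sources used here. The values deposited by the authors are a signal (reads per gene over a size factor of the library), and all 4 columns were matched to a library by its labels. The authors also deposited their own comparison (a log2 fold change, a test score, a p-value and a call for each gene), which was not used.

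Scramble libraries gave 15258182 and 18366226 recovered reads, Top1 KD libraries 14681774 and 16503586. In each library 100% of values lay within 0.05 reads of a whole read, or within a tolerance in proportion to the value. For the most abundant genes that tolerance was wider than the distance to any whole read, so the share says nothing about them. The comparison used limma 3.58.1 in R 4.3.3, with a mean-variance trend, after adding a pseudocount of 1 and taking log2, which understates the change of low genes, for genes reaching 10 normalized counts in 2 or more libraries. Alternatives were edgeR 4.0.16 and DESeq2 1.42.0 on recovered reads, library-size scaling, no filter, pseudocounts of 0.1 and 5, a 2-fold threshold, a replicate block and leaving out each library. Genes given by identifier were the 2 largest falls and 2 largest rises by call, with groups that do not overlap and an average of 100 or more. Planned lists of named genes were not used, because identifiers matched no name. The fits were tested on simulated data. Medians over genes and correlations across genes are descriptions without a test. The limma p-values set the difference between the groups against the spread between replicates, drawn toward the mean-variance trend.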

Additional observations from a re-analysis of the deposited data

How the results depend on the processing

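The number of chromosome 22 genes called lower was 29, and from 27 to 30 under edgeR, DESeq2, library-size scaling, no filter and either other pseudocount, and the number called higher was 10, and from 10 to 12. A 2-fold threshold left 8 and 2 by construction. Across the fits that left out 1 replicate, from 6 to 31 genes were called lower and from 4 to 9 higher, with the lowest counts without scramble replicate 1, and 20 to 27 of the 29 still fell at least 1.5-fold. Replicate numbers do not pair these libraries (the correlation of deviations of same-numbered libraries was -0.01 over all tested genes), and with a replicate block the counts were 29 and 10. The median log2 fold change of the chromosome, -0.05, was -0.026 with library-size scaling, -0.098 without the filter, and from -0.072 to -0.027 across the fits that left out 1 replicate. Of 152 values of the medians by bin, strand, span and level under the alternatives, 140 kept their sign, and 111 moved by less than the SD between replicates. Counted by median, 10 of the 19 changed sign under at least 1 alternative. The 4 genes given by identifier kept their sign in 44 of 44 values and their call in 39, and the 5 lost calls were all of ENST00000216133. With 2 libraries per group the number of libraries limits single genes, and genes of low count carry the widest spread.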
